A study of Mus musculus with 15 samples.

Results

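The 33 genes described here encode the enzymes that build cholesterol and fatty acids, the proteins that switch those enzymes on, and 1 sterol carrier. They were chosen as a list of symbols, 33 of the 54752 genes in the count table, and each symbol matched 1 row. By role they comprised 6 genes of the mevalonate steps, 11 of the steps from squalene to cholesterol, 5 of the SREBP control system, 4 of fatty acid synthesis, 6 of desaturation and elongation, and 1 of transport. RNA was sequenced from nephron segments of mouse kidney in 4 groups: wild-type proximal convoluted tubule (4 libraries), Cldn10a knockout proximal convoluted tubule (3 libraries), wild-type distal convoluted tubule (4 libraries) and Cldn10a knockout distal convoluted tubule (4 libraries). Cldn10 encodes claudin-10, a tight junction protein, of which claudin-10a is the form found in the proximal tubule. Segments were obtained from enzymatically digested kidney slices, and each RNA pool held 10 proximal segments or about 20 distal segments of a kidney. No agent was given, and the labels name no strain, age or sex and do not describe how the knockout was made. Wild-type proximal library 6 and knockout proximal library 7 carry library numbers of another series than all the other libraries. The labels do not say what the series stands for, and no distal library belongs to it. Whether every library stands for a separate mouse is not spelled out, and the p-values then speak for the variation among these libraries, part of which may be technical.

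Cells make cholesterol from acetyl-CoA through mevalonate, farnesyl diphosphate and squalene, and make fatty acids from the same acetyl-CoA through malonyl-CoA. Both branches are switched on by the SREBP transcription factors, which the escort protein Scap carries from the endoplasmic reticulum to the Golgi when sterols are low, and which the Insig proteins hold back when sterols are high. The proximal tubule reabsorbs most of the filtered solute and burns fatty acids for energy, whereas the distal convoluted tubule is a short segment that takes up sodium chloride through the thiazide-sensitive cotransporter.

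Promoter sequences of 4 genes with wide gaps between the segments are shown. Scd2 and Scd1 are not among them, though their wild-type gaps exceeded those of Mvd and Hmgcs1. Of the 4 shown, Hmgcs1, Mvd and Fads2 were high in the proximal tubule and Acacb was high in the distal tubule. Each is a window of 300 bases around an annotated start site, which for Acacb lies inside the gene model, from RefSeq on GRCm38.p6, read 5′ to 3′ on the strand of the gene. Capitals mark 3 motifs on either strand: the sterol response element core TCACNCCAC, the NF-Y motif CCAAT, which reads ATTGG on the other strand, and the Sp1 motif GGGCGG, which reads CCGCCC on the other strand.
Hmgcs1 (chr13:119690101-119690400, plus strand): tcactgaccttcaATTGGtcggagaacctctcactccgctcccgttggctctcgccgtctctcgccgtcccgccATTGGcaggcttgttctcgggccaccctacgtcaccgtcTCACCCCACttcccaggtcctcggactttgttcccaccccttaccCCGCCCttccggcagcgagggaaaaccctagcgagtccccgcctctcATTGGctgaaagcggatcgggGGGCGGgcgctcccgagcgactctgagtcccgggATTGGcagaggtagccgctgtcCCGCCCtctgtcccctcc
Mvd (chr8:122443373-122443672, minus strand): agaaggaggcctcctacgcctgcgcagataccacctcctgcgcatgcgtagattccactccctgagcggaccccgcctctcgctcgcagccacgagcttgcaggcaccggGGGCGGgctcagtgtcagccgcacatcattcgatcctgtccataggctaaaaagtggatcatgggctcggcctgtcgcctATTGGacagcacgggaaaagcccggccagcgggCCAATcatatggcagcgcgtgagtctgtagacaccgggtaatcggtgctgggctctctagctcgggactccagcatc
Fads2 (chr19:10101454-10101753, minus strand): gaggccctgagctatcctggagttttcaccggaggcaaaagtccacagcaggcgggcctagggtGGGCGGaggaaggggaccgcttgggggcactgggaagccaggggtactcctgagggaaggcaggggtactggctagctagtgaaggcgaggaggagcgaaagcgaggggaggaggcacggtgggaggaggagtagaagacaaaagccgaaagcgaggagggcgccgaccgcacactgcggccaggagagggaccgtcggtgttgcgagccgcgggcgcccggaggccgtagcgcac
Acacb (chr5:114165268-114165567, plus strand): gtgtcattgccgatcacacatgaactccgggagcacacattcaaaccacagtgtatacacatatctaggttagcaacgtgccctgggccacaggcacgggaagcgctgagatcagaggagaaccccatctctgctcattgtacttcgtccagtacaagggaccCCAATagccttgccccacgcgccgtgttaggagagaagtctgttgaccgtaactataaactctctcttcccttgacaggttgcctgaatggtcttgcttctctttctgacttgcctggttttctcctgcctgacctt
The Hmgcs1 window held all 3 motifs, with the sterol response element core 1 time and CCAAT 4 times. The Mvd window held CCAAT 2 times and GGGCGG 1 time, the Fads2 window held GGGCGG 1 time, and the Acacb window held CCAAT 1 time. A window was found for 26 of the 33 genes. CCAAT was in 22 of these 26, beside 41.1% of the 27025 genes with a window of the same length, and GGGCGG was in 20 of 26, beside 38.2%. The sterol response element core was in 1 of 26 (Hmgcs1), beside 1.44% of all genes, and the E-box CACGTG was in 6 of 26, beside 8.09%. No marked match overlaps another in the 4 windows. A match is a string of letters in the window and no measurement of binding, and the start site used in these tubules was not determined.

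The libraries held 28729339 to 51764746 counts, of which 57.8 to 71.6% fell on mitochondrial ribosomal RNA and 8.02 to 19.7% on nuclear protein-coding genes. Levels are given as CPM, the count of a gene scaled to the size of its library after correction by trimmed means of M values. Cldn10 had 541 to 1514 counts in the wild-type proximal libraries and 0 in the 3 knockout proximal libraries, while in the distal tubule it had 3 to 22 counts in wild type and 0 to 24 in knockout, which is too few to check the distal labels. The summed CPM of 8 proximal markers was 3269 to 4047 in the proximal libraries and 7.09 to 14.4 in the distal ones, and that of 6 distal convoluted tubule markers was 1885 to 2377 in the distal libraries and 25.6 to 38.0 in the proximal ones. Distal libraries also carried thick ascending limb markers (5 genes summing to 321 to 599 CPM, against 0.560 to 1.37 in proximal libraries), intercalated cell markers (5 genes, 78.99 to 191 against 0.0558 to 0.5004) and endothelial markers (6 genes, 39.0 to 60.6 against 10.6 to 33.1). The part of these other cells in the distal levels below was not tested, and in pooled tubules fewer cells of a type cannot be told apart from less RNA per cell.

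Proximal and distal tubules differed in which lipid synthesis genes they expressed and by how much. In wild type, 19 of the 32 genes tested differed between the segments, 13 of them higher and 6 lower in the proximal tubule (limma, Benjamini-Hochberg adjusted p under 0.05 over 13616 genes). This was 59.4% of the genes tested, beside 48.7% of all genes. The 13 that were higher stood beside 23.6% of all genes called higher, and the 6 that were lower beside 25.1% called lower. The median log2 difference, proximal minus distal, was 0.48 over the 32 genes and -0.02 over all genes. The knockout libraries, none of which enter the wild-type comparison, gave 21 of 32 genes, or 65.6% beside 40.6% of all genes. Of these 16 were higher and 5 lower, beside 20.4% of all genes higher and 20.2% lower, and the median was 0.67 beside -0.04. The same direction was called in both genotypes for 17 genes, 12 higher and 5 lower in the proximal tubule, and none of these genes was called in opposite directions. The share of all genes called in both genotypes was not counted, so these counts have no background beside them. Scap and Scd1 were called in wild type alone, Idi1, Cyp51, Lss and Dhcr7 in knockout alone, and 9 genes in neither. A test of the difference between the genotypes (the interaction) called none of them. Under every alternative fit run, 10 of the 17 kept their call in both genotypes: Hmgcs1, Mvd, Fdft1, Nsdhl, Hsd17b7, Acacb, Fasn, Scd2, Elovl5 and Fads2. The count of 5 lower genes in knockout was 3 without proximal knockout library 7, without distal knockout library 5 or without distal knockout library 6.

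**Figure D1:**
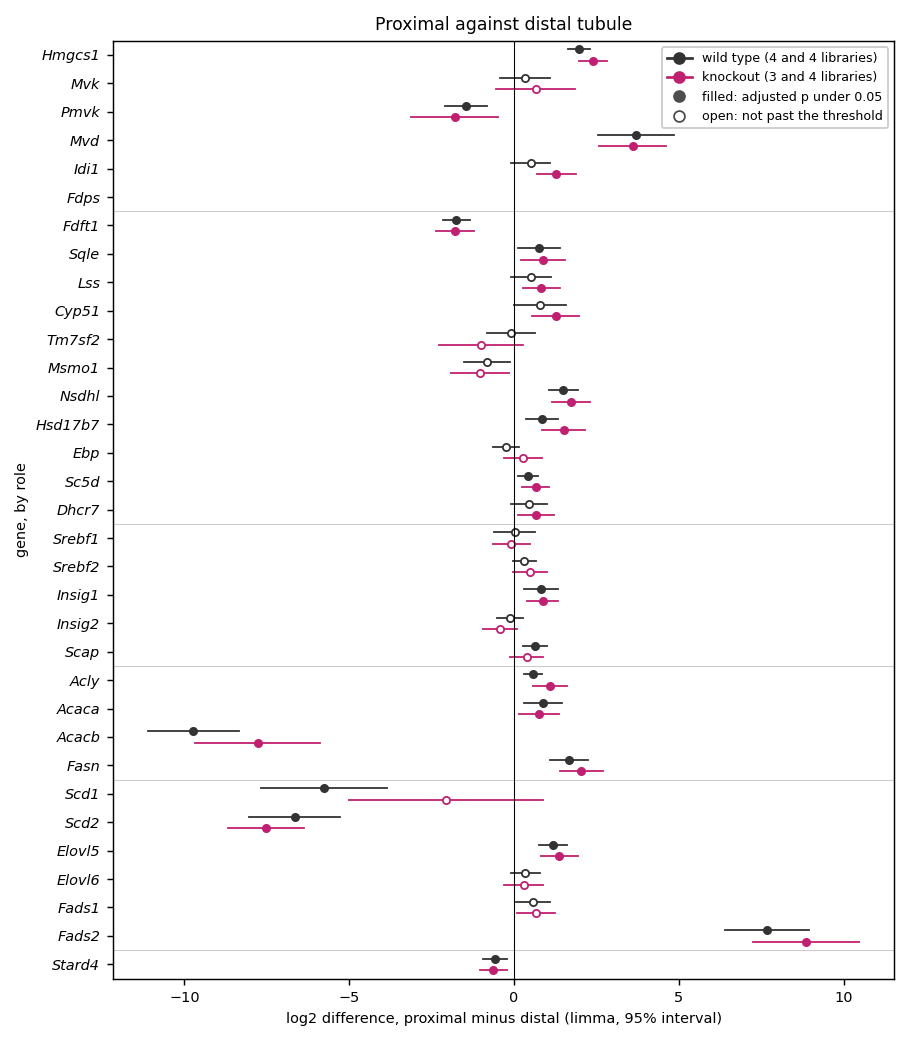
The log2 difference between proximal and distal tubule (x axis, proximal minus distal, limma estimate with its 95% interval) for each tested gene (y axis, grouped by role), in wild type and in knockout. Filled points passed an adjusted p of 0.05: Fads2 and Mvd lie far to the right and Acacb and Scd2 far to the left in both genotypes, and Fdps was not tested.

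Among the mevalonate steps, Hmgcs1 and Mvd were higher and Pmvk lower in the proximal tubule. Hmgcs1 (ENSMUSG00000093930; chromosome 13, 119690379 to 119708260, plus strand) encodes the cytosolic synthase that makes HMG-CoA. Its level was 48.1, 43.7, 42.1 and 36.2 CPM in the wild-type proximal libraries, 51.3, 66.1 and 52.3 in the knockout proximal libraries, 9.41, 10.7, 8.64 and 14.3 in the wild-type distal libraries and 9.43, 14.6, 11.6 and 8.42 in the knockout distal libraries. All 7 proximal libraries lay above all 8 distal ones. The log2 difference was 1.97 (SE 0.15, adjusted p 2.02e-08, limma) in wild type and 2.40 (SE 0.20, adjusted p 3.26e-07) in knockout. Mvd (ENSMUSG00000006517; chromosome 8, 122433601 to 122443422, minus strand) encodes the decarboxylase that yields isopentenyl diphosphate. It stood at 2.27 to 4.44 CPM in the 7 proximal libraries and 0.0690 to 0.481 CPM in the 8 distal ones, again with no overlap. Its log2 difference was 3.71 (SE 0.54, adjusted p 2.70e-05, limma) in wild type and 3.60 (SE 0.47, adjusted p 2.28e-05) in knockout. Pmvk, the kinase that acts before Mvd, went the other way. It had 0.723, 0.912, 1.55 and 0.751 CPM in wild-type proximal libraries and 1.83, 2.59, 3.38 and 2.57 in wild-type distal ones, a log2 difference of -1.44 (SE 0.30, adjusted p 0.000761, limma). In knockout the Pmvk difference was -1.80 (SE 0.61, adjusted p 0.0303, limma) at 0.199 to 0.507 CPM in proximal and 0.721 to 2.76 in distal libraries. That call was lost on leaving out any of the 3 proximal knockout libraries or distal knockout library 5 or 6, with adjusted p of 0.0663 to 0.113.

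Idi1, the isomerase that turns isopentenyl into dimethylallyl diphosphate, had 6.49, 17.9, 13.2 and 11.9 CPM in wild-type proximal libraries (1, 2, 3 and 6) and 5.55, 7.30, 8.20 and 11.9 CPM in wild-type distal libraries. The wild-type groups overlapped, since proximal libraries 1 and 6 lay below distal library 4, and the log2 difference of 0.50 (SE 0.27, adjusted p 0.142, limma) missed the threshold. Without proximal library 1 it was 0.79 (adjusted p 0.00619). In knockout Idi1 stood at 16.6 to 23.3 CPM in proximal and 5.67 to 14.4 CPM in distal libraries, which do not overlap, with a log2 difference of 1.29 (SE 0.27, adjusted p 0.00152, limma). Mvk, the mevalonate kinase, had 0.739 to 1.52 CPM in proximal and 0.274 to 1.75 CPM in distal libraries and was called in neither genotype. Fdps, which encodes farnesyl diphosphate synthase, had 0 to 0.297 CPM in all 15 libraries and passed the filter on low counts in no comparison. In the GENCODE M21 annotation, 81.3% of the length of its principal transcript is shared on the same strand with the gene model Gm43738, which has 0 counts, so the level listed for Fdps is uncertain. How reads of shared exons were counted is not stated.

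From squalene to cholesterol, 5 of 11 genes were called in wild type (4 higher, 1 lower in the proximal tubule) and 8 of 11 in knockout (7 higher, 1 lower), with medians of 0.46 and 0.67. These were 45.5% beside 48.7% of all genes in wild type, which is no more than the background, and 72.7% beside 40.6% in knockout. The gene that was lower was the first of the branch. Fdft1, squalene synthase, had 5.08, 3.71, 6.50 and 3.25 CPM in wild-type proximal libraries, 2.45, 5.74 and 3.04 in knockout proximal libraries, 16.7, 17.2, 13.5 and 13.4 in wild-type distal libraries and 12.3, 14.0, 12.3 and 10.7 in knockout distal libraries. Every proximal library lay below every distal one. The log2 difference was -1.75 (SE 0.19, adjusted p 1.20e-06, limma) in wild type and -1.79 (SE 0.27, adjusted p 7.70e-05) in knockout. Exons of other genes, mostly of Ctsb, lie on the opposite strand over 20.9% of its principal transcript. The library preparation does not mark strand, so reads of that stretch cannot be assigned to Fdft1 or the other gene by strand. Ctsb had 50601 counts over all libraries, and how such reads were counted is not stated, so the level of Fdft1 is uncertain.

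Nsdhl, a sterol dehydrogenase that takes part in removing methyl groups from the ring, showed the opposite pattern. It had 18.1, 24.8, 32.6 and 21.9 CPM in wild-type proximal libraries and 6.93, 6.27, 9.08 and 12.0 in wild-type distal ones, with 15.9, 17.2 and 26.4 CPM in knockout proximal and 4.73, 7.76, 4.10 and 8.03 in knockout distal libraries. The segments did not overlap, and the log2 difference was 1.49 (SE 0.21, adjusted p 1.69e-05, limma) in wild type and 1.73 (SE 0.27, adjusted p 0.000100) in knockout. Hsd17b7, the ketoreductase that acts next, stood at 6.14 to 7.79 CPM in wild-type proximal and 2.69 to 6.13 CPM in wild-type distal libraries. Its log2 difference was 0.84 (SE 0.23, adjusted p 0.00560, limma) in wild type and 1.50 (SE 0.31, adjusted p 0.00122) in knockout, where the proximal libraries held 6.36 to 10.2 CPM and the distal ones 1.87 to 5.70. Sc5d, a late desaturase of the sterol ring, was higher by a smaller margin, with 7.69 to 9.65 CPM against 5.97 to 7.17 in wild type and 9.76 to 12.0 against 5.93 to 8.28 in knockout. Its log2 differences were 0.44 (SE 0.14, adjusted p 0.0175, limma) and 0.66 (SE 0.20, adjusted p 0.0149).

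Sqle, the epoxidase of squalene and a rate-limiting enzyme of the branch, was called in both genotypes but rested on single libraries. Its wild-type levels were 9.53, 7.09, 11.3 and 8.64 CPM in proximal and 2.52, 3.84, 6.09 and 10.7 CPM in distal libraries, and distal library 4 lay within the proximal range. The log2 difference was 0.76 (SE 0.30, adjusted p 0.0452, limma) in wild type and 0.87 (SE 0.31, adjusted p 0.0370) in knockout. Leaving out proximal library 1, 3 or 6 or distal library 1, 2 or 3 in wild type gave adjusted p of 0.0567 to 0.170. In knockout, leaving out any proximal library or distal library 5, 7 or 8 gave 0.0709 to 0.125. Lss, which folds the epoxide into lanosterol, and Cyp51, the demethylase of lanosterol, were called in knockout alone. Cyp51 had 9.52 to 17.0 CPM in knockout proximal and 3.10 to 10.6 CPM in knockout distal libraries, a log2 difference of 1.26 (SE 0.34, adjusted p 0.00752, limma), and in wild type 0.79 (SE 0.37, adjusted p 0.0933). The wild-type difference of Cyp51 was called without proximal library 1 or without distal library 4, with adjusted p of 0.0161 to 0.0247.

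Lss differed by 0.83 (SE 0.26, adjusted p 0.0188, limma) in knockout and 0.52 (SE 0.29, adjusted p 0.154) in wild type on the log2 scale. Dhcr7, the reductase of the last step, differed by 0.67 (SE 0.25, adjusted p 0.0441, limma) in knockout and 0.46 (SE 0.26, adjusted p 0.155) in wild type. Both knockout calls depended on single libraries. Lss lost its call without proximal library 5 or 7 or distal library 5 (adjusted p 0.0525 to 0.0617), and Dhcr7 without any 1 proximal library or distal library 5, 7 or 8 (0.0515 to 0.140). In wild type both were called without distal library 4, Lss also without proximal library 6 and Dhcr7 also without proximal library 2, with adjusted p of 0.0354 to 0.0482. The remaining sterol enzymes were called in neither genotype. These were Msmo1, the methyl oxidase (log2 -0.81, SE 0.33, adjusted p 0.0512, limma, in wild type), Ebp, the isomerase (-0.25, SE 0.18, adjusted p 0.290) and Tm7sf2, a reductase (-0.09, SE 0.35, adjusted p 0.855). Msmo1 passed in wild type without proximal library 3 or distal library 1 or 2, with adjusted p of 0.00880 to 0.0471.

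Of the 5 genes of the SREBP control system, 2 were called in wild type and 1 in knockout, all higher in the proximal tubule, or 40% and 20% beside 48.7% and 40.6% of all genes. Srebf1 and Srebf2, which encode the transcription factors, were called in neither genotype, with wild-type log2 differences of 0.02 (SE 0.29, adjusted p 0.960, limma) and 0.31 (SE 0.17, adjusted p 0.137). The 95% intervals ran from -0.60 to 0.65 for Srebf1 and from -0.04 to 0.67 for Srebf2, and Srebf2 was called without wild-type distal library 4 (0.48, adjusted p 0.0263). Insig1, which retains SREBP in the endoplasmic reticulum and is itself an SREBP target, was higher in the proximal tubule in both genotypes. It had 12.9, 6.63, 11.9 and 7.10 CPM in wild-type proximal and 4.17, 5.47, 4.26 and 6.96 in wild-type distal libraries, which overlap by proximal library 2 against distal library 4. Its log2 difference was 0.82 (SE 0.24, adjusted p 0.0101, limma) in wild type and 0.87 (SE 0.22, adjusted p 0.00624) in knockout. Insig2, its paralogue, was called in neither (-0.12, SE 0.19, adjusted p 0.619, limma, in wild type). Scap, the escort protein, was higher in wild type, at 5.82 to 7.30 CPM against 3.38 to 5.12, with a log2 difference of 0.63 (SE 0.17, adjusted p 0.00621, limma). In knockout it was 0.39 (SE 0.23, adjusted p 0.211).

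All 4 genes of fatty acid synthesis were called in both genotypes, 3 higher and 1 lower in the proximal tubule. Of all genes, 48.7% were called in wild type and 40.6% in knockout. Acly, the enzyme that makes cytosolic acetyl-CoA from citrate, had 12.3, 15.1, 12.2 and 11.7 CPM in wild-type proximal and 8.52, 8.28, 7.74 and 9.38 in wild-type distal libraries. Fasn, the fatty acid synthase, had 6.28, 6.96, 10.7 and 5.00 CPM in wild-type proximal and 1.97, 2.72, 1.65 and 2.48 in wild-type distal libraries. Neither gene overlapped between the segments. The log2 difference was 0.58 (SE 0.14, adjusted p 0.00207, limma) for Acly and 1.66 (SE 0.27, adjusted p 8.36e-05) for Fasn in wild type, and 1.08 (SE 0.24, adjusted p 0.00221) and 2.05 (SE 0.31, adjusted p 8.59e-05) in knockout. The acetyl-CoA carboxylases, which make malonyl-CoA, split by segment. Acaca, the cytosolic carboxylase used for synthesis, had 4.09, 3.61, 7.07 and 3.39 CPM in wild-type proximal and 1.62, 2.40, 2.24 and 3.04 in wild-type distal libraries, a log2 difference of 0.89 (SE 0.27, adjusted p 0.0125, limma). In knockout it was 0.77 (SE 0.28, adjusted p 0.0414, limma), a call that was lost without proximal library 5 or 7 or distal library 5, 6 or 8 (adjusted p 0.0594 to 0.131).

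Acacb (ENSMUSG00000042010; chromosome 5, 114146535 to 114250761, plus strand), the carboxylase of the mitochondrial surface whose malonyl-CoA restrains fatty acid import into mitochondria, was almost wholly distal. It had 10.2, 10.7, 10.6 and 14.3 CPM in wild-type distal libraries and 14.1, 8.43, 10.6 and 9.43 in knockout distal libraries. The wild-type proximal libraries held 1 count of Acacb in all, against 1843 counts in the wild-type distal ones, a ratio of summed levels of 2253 with a 95% interval from 403.9 to 89040 for counting error alone. The knockout proximal libraries held 0.139, 0 and 0.0441 CPM, or 7 counts. The fitted log2 differences of -9.73 (SE 0.64, adjusted p 4.27e-09, limma) in wild type and -7.78 (SE 0.88, adjusted p 5.62e-06) in knockout depend on the prior count of 0.5 and are no bounds. Across all 15 libraries the 5 genes whose log2 CPM followed Acacb most closely were Casr, Tmem72, Pvalb, Hk1 and Pcolce, with Pearson r of 0.998 to 0.997. These points share the split into segments and the libraries, and Pvalb is among the 6 distal convoluted tubule markers used here.

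Desaturation and elongation held the other large contrasts. Fads2 (ENSMUSG00000024665; chromosome 19, 10062765 to 10101746, minus strand), the first desaturase in the synthesis of polyunsaturated fatty acids, had 14.5, 17.3, 19.8 and 17.3 CPM in wild-type proximal and 19.5, 21.2 and 13.0 CPM in knockout proximal libraries. It had 0.0345, 0.160, 0.0516 and 0.0643 CPM in wild-type distal and 0, 0.0581, 0.0249 and 0.0461 in knockout distal libraries, so the lowest proximal library was far above the highest distal one. The log2 difference was 7.69 (SE 0.60, adjusted p 2.41e-08, limma) in wild type and 8.86 (SE 0.75, adjusted p 3.20e-07) in knockout. Fads1, the desaturase that acts after Fads2, was present in both segments, at 21.7 to 48.5 CPM in wild-type proximal and 14.9 to 26.6 CPM in wild-type distal libraries. Its log2 difference of 0.57 (SE 0.24, adjusted p 0.0673, limma) in wild type and 0.67 (SE 0.27, adjusted p 0.0580) in knockout missed the threshold. It was called in wild type without proximal library 1 or 6 or distal library 4 (adjusted p 0.0222 to 0.0406) and in knockout without distal library 6 (adjusted p 0.00664).

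The stearoyl-CoA desaturases, which put the first double bond into saturated fatty acids, were higher in the distal tubule in wild type. Scd2 (ENSMUSG00000025203; chromosome 19, 44293674 to 44306864, plus strand) had 41.4, 86.5, 67.7 and 118 CPM in wild-type distal and 63.2, 112, 62.1 and 74.6 CPM in knockout distal libraries. In the proximal tubule it had 0.785, 0.373, 2.73 and 0.296 CPM in wild type and 0.446, 0.547 and 0.264 CPM in knockout. The segments were far apart, with a log2 difference of -6.66 (SE 0.65, adjusted p 2.83e-07, limma) in wild type and -7.52 (SE 0.54, adjusted p 6.60e-08) in knockout. Scd1 was lower in level than Scd2 in the distal tubule, at 2.34, 1.60, 4.21 and 4.07 CPM in wild type and 1.08, 2.09, 1.44 and 1.73 in knockout. In the proximal tubule it had 0 to 0.104 CPM in wild type, a log2 difference of -5.76 (SE 0.90, adjusted p 4.88e-05, limma). Knockout proximal library 4 stood apart with 13.7 CPM of Scd1 (493 counts), while knockout proximal libraries 5 and 7 had 0.622 and 0 CPM. With this library the knockout difference of Scd1 was -2.05 (SE 1.37, adjusted p 0.263, limma), and without it -4.32 (adjusted p 0.0198). The summed CPM of 7 adipocyte markers was 1.98 in that library, 0.771 and 1.06 in libraries 5 and 7, and 0.455 to 0.767 in wild-type proximal libraries, groups that do not overlap (exact two-sided permutation p 0.0571, the smallest that 4 against 3 libraries allow, and 0.314 after adjustment over 22 such tests). Adipoq, Cidec, Lep, Retn and Cfd were at 0 in all 7 proximal libraries. The sum was therefore Fabp4 alone in wild-type proximal libraries, and Fabp4 with Plin1 in knockout proximal ones. The part of these markers in the Scd1 value was not tested.

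Elovl5, which elongates polyunsaturated fatty acids, was higher in the proximal tubule, at 17.2, 16.2, 21.5 and 12.6 CPM against 4.79, 6.48, 9.11 and 9.04 in wild type. The groups did not overlap, and its log2 difference was 1.18 (SE 0.20, adjusted p 0.000119, limma) in wild type and 1.37 (SE 0.26, adjusted p 0.000659) in knockout. Elovl6, the elongase of saturated chains, was called in neither genotype (0.35, SE 0.21, adjusted p 0.186, limma, in wild type). Stard4, a cytosolic sterol carrier, was lower in the proximal tubule, at 16.3, 9.12, 17.0 and 13.5 CPM against 17.5, 18.2, 21.3 and 23.6 in wild type, and at 10.4 to 15.6 against 16.8 to 22.5 CPM in knockout. Its log2 difference was -0.57 (SE 0.18, adjusted p 0.0129, limma) in wild type and -0.63 (SE 0.19, adjusted p 0.0185) in knockout. Both calls depended on single libraries: in wild type the call was lost without proximal library 2 or distal library 4 (adjusted p 0.0533 to 0.0557), and in knockout without proximal library 4 or 7 or distal library 5 or 6 (0.0607 to 0.0936).

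**Figure D2:**
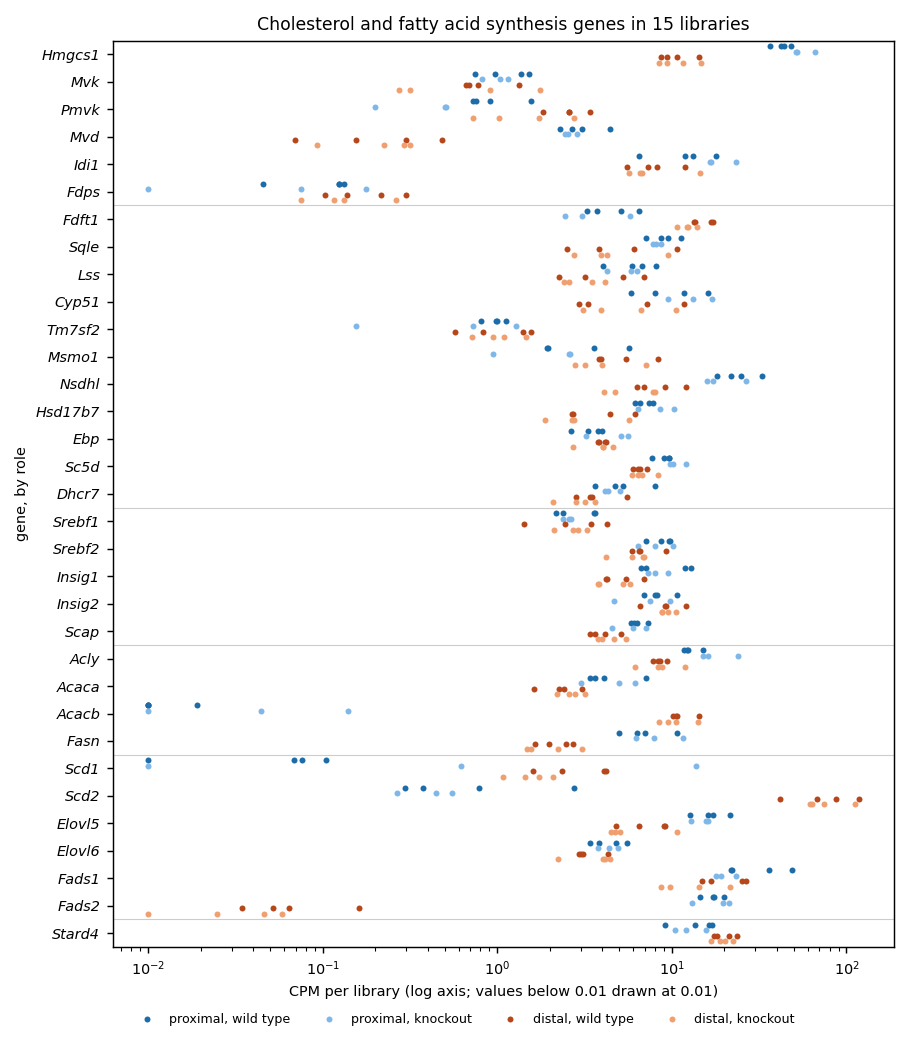
CPM of the 33 genes (x axis, log scale, values below 0.01 drawn at 0.01) in each of the 15 libraries (points, coloured by group), with genes on the y axis ordered by role. Acacb, Scd2 and Fads2 form clusters that lie far apart by segment, Fdps stays at the low end in every group, and 1 knockout proximal library lies far above its group for Scd1.

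Of 6 pairs of paralogues, the carboxylases and the Fads desaturases shifted most in their shares between the segments. Per kilobase of exon, Acacb made up 88.8 to 91.8% of the summed Acaca and Acacb level in wild-type distal libraries and 0 to 0.473% in wild-type proximal ones. Fads2 made up 37.4 to 53.7% of the Fads1 and Fads2 sum in wild-type proximal libraries and 0.299 to 1.55% in wild-type distal ones. For these carboxylases and desaturases the ranges of the segments lay far apart, and the knockout ranges did so as well: 85.2 to 91.9% against 0 to 7.58% for Acacb, and 44.9 to 61.7% against 0 to 0.771% for Fads2. Scd2 was 93.5 to 98.0% of the Scd1 and Scd2 sum in wild-type distal and 76.3 to 100% in wild-type proximal libraries, where both genes were low, but 2.82% in knockout proximal library 4. Srebf2 was 67.7 to 74.1% of the Srebf1 and Srebf2 sum in wild-type proximal and 57.3 to 78.5% in wild-type distal libraries, ranges that overlap, as did those in knockout (65.5 to 76.9% and 53.3 to 68.7%). Insig2 was 32.2 to 58.9% of the Insig1 and Insig2 sum in wild-type proximal and 45.8 to 66.2% in wild-type distal libraries, which overlap, while the knockout ranges of 30.3 to 52.1% and 59.6 to 70.9% did not. Elovl6 was 8.89 to 17.1% of the Elovl5 and Elovl6 sum in wild-type proximal and 15.0 to 25.5% in wild-type distal libraries, again overlapping, against 13.2 to 14.4% and 17.6 to 32.3% in knockout, which did not overlap.

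**Figure D3:**
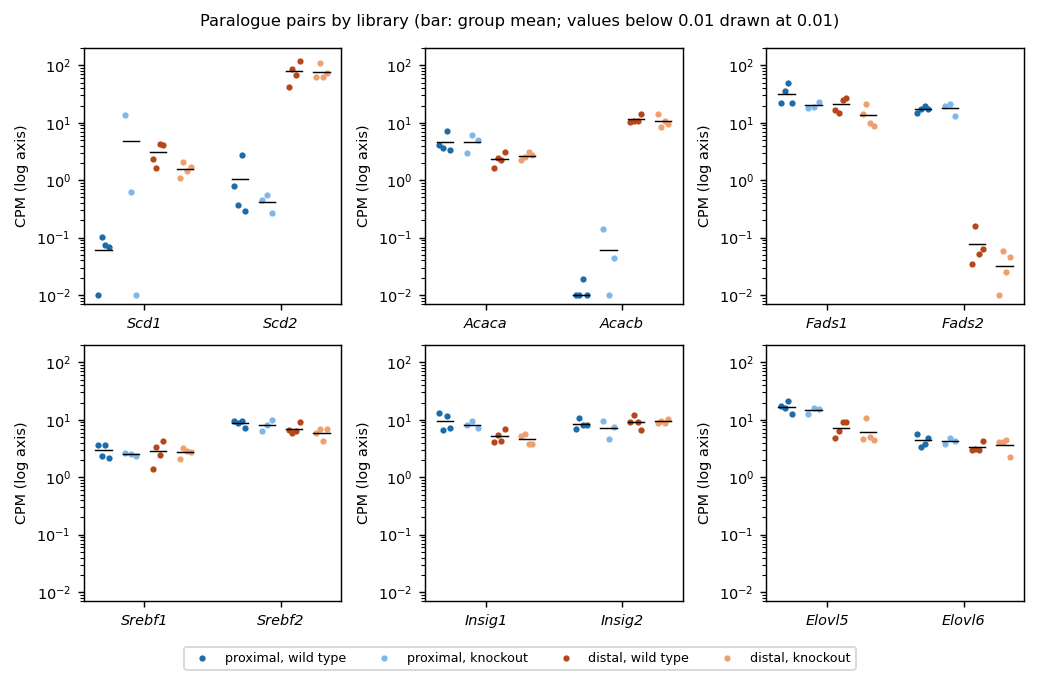
CPM (y axis, log scale) of 6 paralogue pairs in each library, with points coloured by group and bars at the group means. Acacb and Scd2 sit high in the distal groups and low in the proximal ones, Fads2 does the reverse, and Srebf1, Srebf2, Insig2 and Elovl6 lie at similar heights in all 4 groups.

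Levels per kilobase of exon ranked the genes differently in the 2 segments. In wild-type proximal libraries the highest were Hmgcs1 at 9.25 CPM per kilobase, Nsdhl at 8.54, Fads1 at 6.65 and Fads2 at 5.23. In wild-type distal libraries Scd2 led with 14.3, followed by Fads1 at 4.33, Stard4 at 3.61 and Fdft1 at 3.60 CPM per kilobase. The order of neighbours among the proximal 4, and among the 3 that follow Scd2 in the distal tubule, is not resolved, since their levels in single libraries overlap. The lowest were Acacb (0.000492), Scd1 (0.0127) and Fdps (0.0253) in the proximal tubule and Fads2 (0.0236), Fdps (0.0447) and Mvd (0.135) in the distal tubule. With the length of the principal transcript, Hmgcs1, Nsdhl and Fads1 ranked the same in proximal wild type and Elovl5 took the place of Fads2. In distal wild type Scd2 and Fads1 still led, and Fdft1, Nsdhl and Stard4 came next.

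Loss of Cldn10a gave no called difference among these genes in either segment. In the proximal tubule 30 genes were tested, all but Fdps, Scd1 and Acacb, and 0 were called, beside 0.166% of all 13229 genes. At an unadjusted p under 0.05 there were 5 of 30, beside 7.38% of all genes. The authors' own test called 0 of 31 at an adjusted p under 0.05 in their deposited table, beside 136 of all 14748 genes. The median log2 difference, knockout minus wild type, was -0.16 over the 30 genes (10 above 0, 20 below) and -0.01 over all genes. The 5 with the smallest p all failed the correction. Acly had 12.3, 15.1, 12.2 and 11.7 CPM in wild type and 15.0, 23.9 and 16.1 in knockout, a log2 difference of 0.48 (SE 0.19, p 0.0245, adjusted p 0.589, limma), and the groups overlap between wild-type library 2 and knockout library 4. Hmgcs1, at 36.2 to 48.1 CPM in wild type and 51.3 to 66.1 in knockout, did not overlap and differed by 0.40 (SE 0.16, p 0.0261, adjusted p 0.589, limma). Idi1 differed by 0.67 (SE 0.28, p 0.0306, adjusted p 0.607, limma), and its groups overlap through wild-type library 2. Across all 15 libraries, which share the split into segments, log2 CPM of Acly was followed most closely by Mia3, Lpgat1, 4932438A13Rik, Gpr155 and Tmem243, with Pearson r of 0.956 to 0.933.

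The other 2 pointed down. Pmvk had 0.723 to 1.55 CPM in wild type and 0.199 to 0.507 in knockout, which do not overlap, with a log2 difference of -1.34 (SE 0.53, p 0.0252, adjusted p 0.589, limma) on 49 counts in the knockout libraries. Fads1 had 21.7 to 48.5 CPM in wild type and 17.8 to 23.4 in knockout, a difference of -0.61 (SE 0.26, p 0.0350, adjusted p 0.631, limma). In these libraries the proximal groups also stood apart in markers of the straight part of the tubule, without passing correction. The summed CPM of 6 such genes was 207 to 370 in wild type and 639 to 798 in knockout, groups that do not overlap (exact two-sided permutation p 0.0571, 0.314 after Benjamini-Hochberg adjustment over 22 such tests, where 0.0571 is the smallest that 4 against 3 libraries allow). The part of this difference in the levels above was not tested.

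In the distal tubule 30 genes were tested, all but Fdps, Mvd and Fads2, and 0 were called, beside 0% of all 12968 genes. At an unadjusted p under 0.05 there were 4 of 30, beside 7.13% of all genes. The authors' deposited table called 0 of 28, beside 3 of all 7181 genes. The median log2 difference was -0.12 (8 above 0, 22 below), beside -0.01 over all genes, and 1 of the 11 genes from squalene to cholesterol lay above 0, beside 49.1% of all genes, with a median of -0.30. The size of this median depended on single libraries, while it stayed below 0 in every alternative run. It was -0.14 (4 above 0) without wild-type library 4, -0.17 (3 above 0) without knockout library 7 and -0.49 (0 above 0) without knockout library 6. The tally of this list over the alternatives was added after seeing the data. The 5 with the smallest p failed the correction. They were Fads1 (-0.69, SE 0.23, p 0.00771, adjusted p 0.670, limma), Pmvk (-0.95, SE 0.34, p 0.0104, adjusted p 0.670), Scd1 (-0.89, SE 0.33, p 0.0140, adjusted p 0.670), Nsdhl (-0.51, SE 0.24, p 0.0428, adjusted p 0.687) and Fdft1 (-0.30, SE 0.15, p 0.0577, adjusted p 0.687). All 5 overlapped between the genotypes: Fads1, for example, had 16.8, 14.9, 25.1 and 26.6 CPM in wild type and 14.3, 21.6, 9.80 and 8.67 in knockout. Fads1 and Pmvk were among the 5 in both segments and below 0 in both. Endothelial markers in the distal libraries did not overlap between the genotypes, at 43.7 to 60.6 CPM in wild type and 39.0 to 40.5 in knockout. The difference did not pass correction (exact two-sided permutation p 0.0286, the smallest that 4 against 4 libraries allow, and 0.314 after adjustment). The part of these markers in the levels was not tested.

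**Figure D4:**
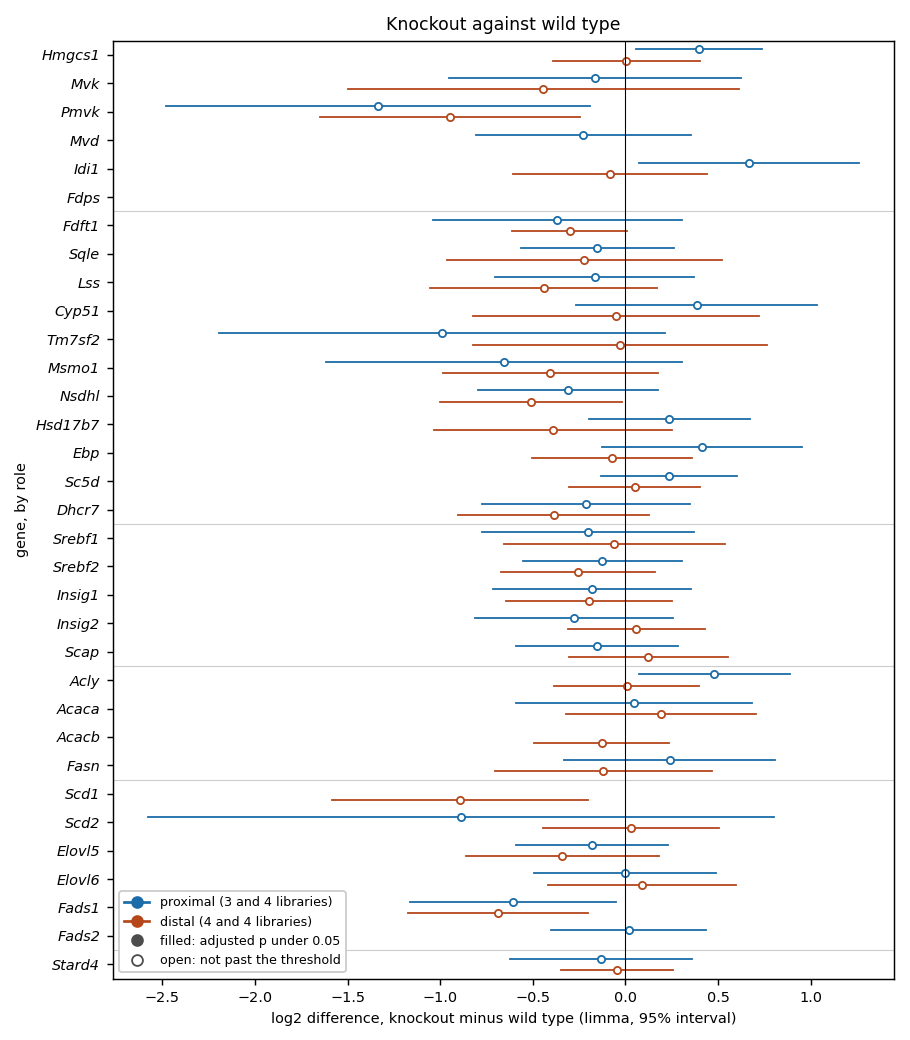
The log2 difference between knockout and wild type (x axis, knockout minus wild type, limma estimate with its 95% interval) for each tested gene (y axis, by role) in proximal and distal tubule. No point is filled, since none passed an adjusted p of 0.05, and Fads1 and Pmvk have intervals below 0 in both segments.

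The precision of these comparisons differed between genes. The 95% interval of the proximal genotype difference ran from -0.40 to 0.44 for Fads2, from -0.56 to 0.26 for Sqle and from -0.33 to 0.81 for Fasn on the log2 scale, but from -2.58 to 0.80 for Scd2 and from -2.48 to -0.19 for Pmvk. A difference inside these intervals was not resolved at this depth. The genotype effect was also compared between the segments. The interaction was called for 0 of 32 genes, beside 0% of all 15279 genes, and 0 of 32 had an unadjusted p under 0.05, beside 5.56%. The 5 with the smallest p were Idi1 (0.76, SE 0.42, p 0.0834, adjusted p 0.940, limma), Acly (0.49, SE 0.27, p 0.0885, adjusted p 0.942), Scd1 (3.66, SE 2.15, p 0.102, adjusted p 0.943), Hsd17b7 (0.64, SE 0.40, p 0.122, adjusted p 0.955) and Hmgcs1 (0.40, SE 0.25, p 0.126, adjusted p 0.958). This is the same contrast as the difference between the 2 segment comparisons, so the genes called in 1 genotype alone were not shown to differ between genotypes.

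Within the distal groups, 3 libraries stood high or low for many of the genes. Wild-type distal library 4 had the highest level of its group for 22 of 32 genes, beside 26.4% of all 15279 genes, and knockout distal library 6 for 21 of 32, beside 22.9%. Among the 16 genes of the mevalonate and squalene-to-cholesterol steps these counts were 11 and 12. Not every gene followed: Fdft1, Insig2, Ebp and Fads2 lay below the group mean in wild-type library 4, Ebp and Fads2 by little. In knockout library 6, all 4 genes of fatty acid synthesis lay 0.03 to 0.34 below it (log2), as did Scap (-0.20). Wild-type distal library 1 was the lowest of its group for 17 of 32 genes, beside 30.4% of all genes, and the highest for 0, beside 26.7%. Cyp51, for example, had 2.93, 3.30, 7.20 and 11.7 CPM in wild-type distal libraries 1 to 4 and 3.10, 10.6, 3.91 and 6.64 CPM in knockout distal libraries 5 to 8. Nuclear protein-coding genes took 11.6% of the counts in wild-type distal library 4, the highest of its group, and 8.20% in knockout distal library 6, lower than in libraries 5 and 8. Thick ascending limb markers summed to 547 CPM in wild-type library 4, against 321 to 366 in the other 3, and to 485 CPM in knockout library 6, within the range of its group. The part of these measures in the levels was not tested. In the proximal tubule, wild-type library 3 was the highest for 19 of 32 genes, beside 25.4% of all genes, and knockout library 5 for 16 of 32, beside 37.9%. Without both distal libraries 4 and 6, a choice made after seeing these values, 23 genes were called in wild type (18 higher, 5 lower) and 19 in knockout (16 higher, 3 lower), and 0 between the genotypes in the distal tubule. Over all genes, these segment fits called 6403 of 13957 in wild type and 4965 of 13514 in knockout.

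**Figure D5:**
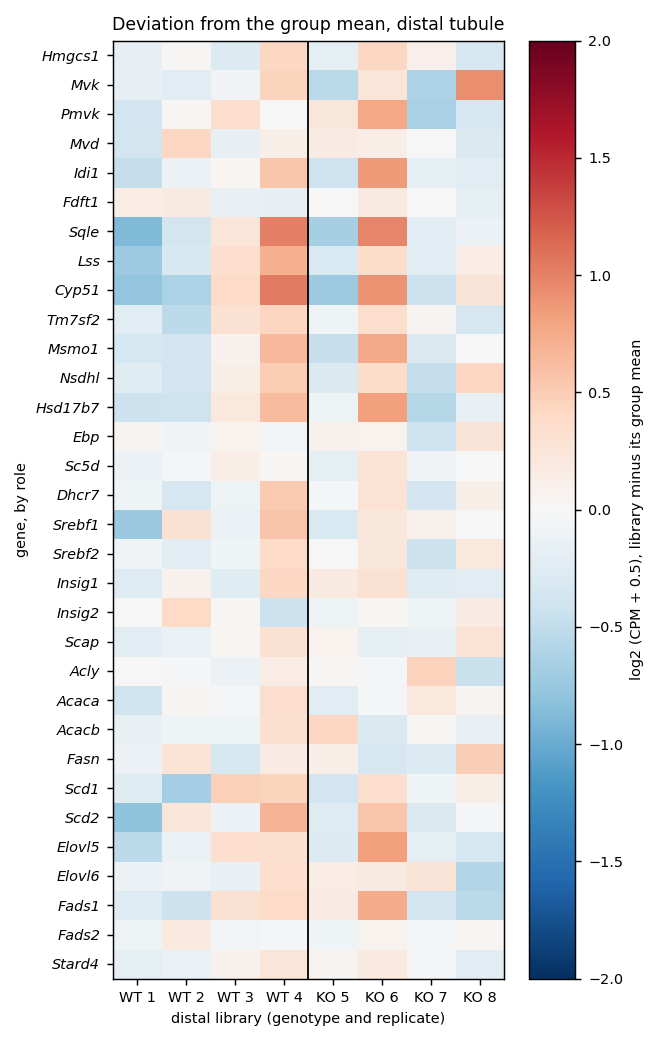
Deviation of each distal library from the mean of its genotype (colour, log2 of CPM plus 0.5, red above and blue below) for each gene (y axis, by role) and library (x axis). Wild-type library 4 and knockout library 6 are red for most genes of the sterol steps, and wild-type library 1 is blue for most.

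Other genes of the same pathways, on lists of 27 sterol genes and 35 fatty acid genes, were compared in the same way. Of the sterol list, 26 were tested in wild type, 13 were higher and 7 lower in the proximal tubule, and in knockout 11 were higher and 4 lower. That was 76.9% called in wild type and 57.7% in knockout, beside 48.7% and 40.6% of all genes. Acat2, the thiolase that feeds Hmgcs1, had 12.6 to 18.7 CPM in wild-type proximal and 2.83 to 3.13 CPM in wild-type distal libraries, and Cyp27a1, a sterol hydroxylase, 5.39 to 7.03 against 0 to 0.171 CPM. Apoe, an apolipoprotein, had 10.4 to 18.2 CPM in wild-type proximal and 0.641 to 1.73 in wild-type distal libraries. Nus1 and Stard5 were also among the genes of the list with the smallest p in wild type, and the 5 genes named were all higher in the proximal tubule.

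Of the fatty acid list, 28 were tested in wild type, 15 were higher and 6 lower in the proximal tubule, and in knockout 13 of 30 were higher and 7 lower. The shares called were 75% and 66.7%, beside the same 48.7% and 40.6%. Me1, malic enzyme, a source of NADPH for synthesis, had 49.4 to 63.4 CPM in wild-type proximal and 0.160 to 0.493 CPM in wild-type distal libraries. Acss2, which makes acetyl-CoA from acetate, had 19.1 to 25.2 against 2.61 to 4.36 CPM, and Elovl2, an elongase of polyunsaturated chains, 16.4 to 22.2 against 0.0458 to 0.407. Cyb5a, the cytochrome that passes electrons to desaturases, had 79.9 to 100 against 16.3 to 22.3 CPM, so all 4 of these were higher in the proximal tubule. Acsl5 and Acsl4, which activate fatty acids, were lower, at 1.74 to 2.71 against 23.4 to 27.8 CPM and 9.58 to 13.9 against 33.1 to 43.8 CPM in wild type. None of either list was called between the genotypes or for the interaction. The nearest was Apoe in the proximal tubule, with 10.4 to 18.2 CPM in wild type and 5.07 to 7.09 in knockout, a log2 difference of -1.26 (SE 0.23, adjusted p 0.0514, limma).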

How the data were processed

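RNA-seq of dissected mouse tubules was analysed in 15 libraries. Extraction used an RNeasy Plus Micro kit and library preparation the Nextera XT protocol, which does not mark strand, per the labels. The submitters' processing notes name CASAVA 1.8, STAR 2.5, DESeq2 1.24.0 and GRCm38, with no role or order. The counting program, annotation release and strand setting were not stated there.

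The authors deposited whole-number counts per gene and library, with 28729339 to 51764746 counts a library, and 2 tables of their own log2 fold changes with raw and adjusted p-values. The unit of these deposited files was recorded as other, because their layout is separated by spaces and the column names are digits, so that a format check could not read them as counts. A count-based test was therefore not used. All 15 columns were matched to samples. The sign of the authors' fold changes is not stated and was read from Cldn10, at -12.2 in the proximal table, as knockout minus wild type.

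Counts were analysed with limma 3.58.1 in R 4.3.3 (voom, log2 CPM with a prior count of 0.5). Library sizes were corrected by the TMM method, trimming 30% of the log ratios and 5% of the intensities. The filter asked for about 10 counts in as many libraries as the smaller group held and for 15 in total. Each comparison was fitted on its own groups, and the interaction on all libraries. P-values were adjusted by the Benjamini-Hochberg method over all genes tested and called under 0.05. Marker sums were compared with exact permutation tests (scipy 1.17.1). Depth sets the precision, and an interval from counts covers counting error alone, because PCR copies were not told apart by molecular identifiers. The fit was tested on simulated counts.

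The genes, the lists of related genes and markers, and the rules were chosen with earlier results of these data known. The genes named with statistics were all called genes or, where fewer than 5 were called, the 5 with the smallest p, and from each related list up to 6 by smallest p, of which 1 is not reported here. Symbols and exon lengths came from GENCODE M21 (54723 of 54752 identifiers matched). Alternatives were other scalings, filters, weights, fits and thresholds, a replicate block, and leaving out libraries. The other marker lists covered connecting tubule and principal cells (5 genes, 47.1 to 124 CPM in distal libraries), macrophages (6 genes, 0.205 to 2.09 CPM over both segments), fibroblasts (5 genes, 0.0558 to 1.86 CPM) and podocytes (4 genes, 2.63 to 6.36 CPM in proximal and 8.58 to 14.5 CPM in distal libraries, where Nphs1 and Wt1 were at 0).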

Additional observations from a re-analysis of the deposited data

Results flagged for a closer look

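In groups of 4 libraries, a value was singled out where its gap to the nearest other library took up more of the group's range than the 95% critical value of Dixon's test allows. This met 8 of 99 group values, and chance alone gives about 1 in 20. In the wild-type distal tubule, library 4 lay above the other 3 for Mvk (1.328 CPM, the others 0.664 to 0.774), Acacb (14.31 CPM, the others 10.2 to 10.7) and Elovl6 (4.305 CPM, the others 2.94 to 3.11). In the knockout distal tubule, library 6 lay above the other 3 for Idi1 (14.39 CPM, the others 5.67 to 6.72) and Elovl5 (10.67 CPM, the others 4.48 to 5.05). Library 8 of that group lay below the others for Elovl6, at 2.238 CPM against 4.04 to 4.40. In the wild-type proximal tubule, Fdps was low in library 6 (0.04549 CPM, the others 0.124 to 0.133), and Acacb had its only count of the group in library 3 (0.01896 CPM). The last 2 rest on very few counts. Groups of 3, such as the knockout proximal libraries with their 1 high value of Scd1, were not tested in this way.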

How the results depend on the processing

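Between the genotypes and for the interaction, 0 genes were called under every alternative run. For proximal against distal tubule in wild type, 18 to 24 of the genes were called over all alternatives. In knockout the count of 21 fell to 12 (9 higher, 3 lower) with the replicate number as a block. Over all 13834 genes, calls fell from 5622 to 3277 in that fit. The 5 lower genes in knockout were 3 without both proximal libraries of the other number series (wild-type library 6 and knockout library 7). They were 3 without both distal libraries 4 and 6 (added after seeing the data), and 3 to 5 on leaving out single libraries. Deviations of same-numbered libraries correlated at -0.015, -0.052 and 0.043 in wild type and at -0.127 and -0.252 in knockout. Libraries of different number correlated at -0.114 to 0.295 within a genotype, so these values cannot decide whether the numbers pair the samples. By the labels, numbers 4 and 6 stand for different genotypes in the 2 segments, so these numbers do not each name a single mouse. The block may therefore join unrelated libraries. In wild type the block gave 24 calls, and over all 13616 genes it gave 5970, against 6631 in the main fit. The block compares the segments only within a shared number, which is 1, 2 and 3 in wild type and 5 and 7 in knockout. Libraries of other numbers add nothing to the difference in that fit. The cause of these shifts was not tested. Of 974 values of single genes under alternatives, 65 lost a call and none changed sign; 53 of the 65 were in knockout. Depth limits Acacb in proximal, Scd1 in wild-type proximal and Mvd and Fads2 in distal libraries, where few counts were seen, whereas Scd1 in knockout proximal libraries turns on library 4.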
